A study of Rattus norvegicus with 52 samples.

Results

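The genes of the distal end of rat chromosome 3 that flank Edn3, the gene of the vasoactive peptide endothelin-3, were followed in the kidneys of salt-sensitive and congenic rats. The 47 genes were listed by position, in the stretch matching the part of the human genome around EDN3, and those of the Rtel1 end of the chromosome were left out. Their probe sets were found by the symbol in the platform annotation. Of the 47, 41 had at least 1 probe set, 73 in all among 31142 on the RAE230A and RAE230B chips, and 6 had none named for them (Kcng1, Sall4, Cyp24a1, Cbln4, Cdh4 and Lsm14b). The brightest probe set lay below its chip's brightness limit for 9 genes (Snai1, Cebpb, Mocs3, Tshz2, Bcas1, Aurka, Tfap2c, Phactr3 and Ss18l1). This left 32 genes, of 8825 genes tested in all, and those 32 are the tested genes below. In the gene order of the GRCr8 assembly, 36 of the 47 lay before Edn3, Stau1 being the first and Gnas the last of them, and 11 lay after it, Phactr3 being the first and Ythdf1 the last. Edn3 itself was not analysed here.

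The study compared rats of the ET3x2 and ET3x1 congenic strains with S rats. S is the inbred Dahl SS/Jr strain, whose blood pressure rises on dietary salt, and each congenic strain carries a segment of chromosome 3 of the R strain on the S background. The labels used here do not give the ends of the segments, so which of the 47 genes lie inside them is not known. All rats were males aged 40 to 42 days, weaned onto a diet with 0.4% NaCl (low salt), and high-salt rats were switched to 4% NaCl for 24 hours. The groups held 4 ET3x2 rats on each diet, 4 ET3x1 rats on each diet and 5 S rats on each diet, 26 rats with 1 left kidney each. Each kidney's RNA was hybridised to both chips, and values are deposited log2 signals, on which a difference of 1 is a doubling.

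The region joins genes of unrelated functions. Gnas encodes the stimulatory G protein alpha subunit, through which the receptors for parathyroid hormone and vasopressin raise cyclic AMP in the tubule, and parts of the locus are imprinted. Bmp7 encodes a bone morphogenetic protein that the developing kidney needs, Lama5 the laminin chain of the mature glomerular basement membrane, and Cyp24a1 the enzyme that inactivates vitamin D in the proximal tubule. The comparisons ask whether genes near Edn3 differed between congenic and S kidneys, and whether 1 day of salt changed them.

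Array medians lay between 7.47 and 7.52 on RAE230A and between 6.34 and 6.40 on RAE230B. All proximal tubule, thick ascending limb, distal convoluted tubule and collecting duct markers were above the brightness limits, and none of 3 skeletal muscle and none of 3 adipocyte markers was. In kidney homogenates, fewer cells of a type and less RNA per cell cannot be told apart. The 3' to 5' signal ratio of Gapdh, a measure of RNA and labelling quality, was lowest in ET3x1 rats on high salt, at 0.594 ± 0.026 on the log2 scale (SD, n = 4), against 0.877 ± 0.099 in ET3x1 rats on low salt (exact permutation p = 0.0286, two-sided, the smallest that 4 against 4 allows; adjusted p = 0.0952 over 27 quality tests). It was 0.812 ± 0.053 in S rats on high salt and 0.827 ± 0.072 in S rats on low salt (SD, n = 5 each). The difference of the hybridisation controls bioD and bioC was 3.08 ± 0.15 in ET3x1 rats on high salt, against 2.54 ± 0.24 in ET3x1 rats on low salt (SD, n = 4 each; exact p = 0.0286, adjusted p = 0.0952). In S rats it was 2.37 ± 0.70 on high salt and 2.83 ± 0.11 on low salt, and in ET3x2 rats 2.67 ± 0.18 and 2.29 ± 0.14. ET3x1 against S on high salt and ET3x2 against S on low salt each had an exact permutation p of 0.0159 (adjusted p = 0.0952). The beta-actin 3' to 5' ratio was 0.61 ± 0.10 in ET3x1 rats on high salt, against 1.22 ± 0.24 on low salt. The part of these measures in the results below was not tested beyond the fits that include them as covariates. Those fits were read for the genes near Edn3 only.

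ET3x2 kidneys, averaged over both diets, had higher signals than S kidneys for Rbm38, Atp9a, Npepl1, Cstf1 and Bmp7, and lower signals for Lama5, Adnp and Zfp217. These were 8 of 32 tested genes (25%), in limma with Benjamini-Hochberg adjustment over all probe sets and a threshold of 0.05. Of all 8825 genes, 30.8% passed in this comparison, so the share among the Edn3 neighbours was near the background and is not a result about them. The median change was 0.03 among the 32 genes and 0.03 among all genes. Leukocyte markers were also higher in congenic kidneys: the mean log2 signal of 8, of which 7 were above the limits and Ptprc below, was 8.51 to 8.58 in ET3x2 and 8.39 to 8.46 in ET3x1 rats on high salt, against 8.21 to 8.35 in S rats. On low salt it was 8.15 to 8.54 in ET3x2 and 8.35 to 8.50 in ET3x1 rats, against 8.03 to 8.18 in S rats. Their part in the strain differences was not tested. By role, the called genes were 2 for RNA handling (Rbm38, an RNA-binding protein, and Cstf1, a subunit of the cleavage stimulation factor that forms mRNA 3' ends) and 2 transcription and chromatin factors (Adnp, a homeodomain protein, and Zfp217, a zinc finger protein). The other four were Atp9a, a P4-type ATPase of endosomes, Npepl1, an aminopeptidase-like protein, Bmp7 and Lama5. The changes were 0.42 ± 0.12 for Rbm38, 0.34 ± 0.09 for Atp9a, 0.25 ± 0.07 for Npepl1, 0.23 ± 0.06 for Cstf1, 0.19 ± 0.06 for Bmp7, -0.33 ± 0.06 for Lama5, -0.25 ± 0.07 for Adnp and -0.18 ± 0.06 for Zfp217 (log2 change ± SE, limma). The 24 others lay between -0.13 for Dpm1 and 0.17 for Vapb. The Zfp217 call was lost without ET3x2 rat 1 on low salt or ET3x2 rat 2 on high salt, with changes between -0.16 and -0.14, and the Adnp change was -0.14 as the mean of both its probe sets.

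ET3x1 kidneys differed from S kidneys in 11 of the 32 genes (34.4%), against 32.1% of all genes, again near the background. Higher signals were found for Ube2v1, a ubiquitin-conjugating enzyme variant, with 0.49 ± 0.15, and for Ppp1r3d, a subunit that targets protein phosphatase 1 to glycogen, with 0.46 ± 0.07. Atp9a with 0.28 ± 0.09, Bmp7 with 0.27 ± 0.06 and Npepl1 with 0.19 ± 0.07 were also higher (log2 change ± SE). Lower signals were found for Zfp217 with -0.37 ± 0.06, Lama5 with -0.31 ± 0.06 and Znfx1, an RNA-binding helicase-like antiviral protein, with -0.28 ± 0.06. Spo11, which cuts DNA in meiosis, with -0.22 ± 0.07, Adnp with -0.20 ± 0.07 and Stx16, a SNARE protein of the trans-Golgi network, with -0.19 ± 0.04 were lower too. The mean signal of Spo11, 6.45, was the lowest of the 32 genes and near its chip's limit of 6.38, and that of Cstf1, 7.507, was at its chip's limit of 7.507. The 21 others lay between -0.12 for Ntsr1, the neurotensin receptor, and 0.20 for Rbm38. The 10 S rats entered both comparisons, so the changes of the congenic strains share them. Among genes called in 1 of these comparisons, ET3x2 and ET3x1 were not shown to differ for Cstf1 (limma adjusted p = 0.150), Rbm38 (0.278), Ube2v1 (0.116), Spo11 (0.0780) and Stx16 (0.0507). Probe sets of a gene also disagreed here: the dimmer one of Cstf1 was called in ET3x1 (0.24 ± 0.08) and not in ET3x2 (0.09 ± 0.08). Of 10 dimmer probe sets 5 were called in ET3x1 against S (32.3% of all probe sets), those of Cstf1, Rae1, Osbpl2, Rab22a and Znfx1.

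Single calls of the ET3x1 comparison depended on a few rats or on the covariates. The Adnp call was lost without ET3x1 rat 2 or S rat 4 on low salt, or ET3x1 rat 4 or S rat 3 on high salt, with changes between -0.18 and -0.16. Npepl1 lost its call without any of 7 of the 26 rats (ET3x1 rats 2 and 3 and S rats 1 and 2 on low salt, ET3x1 rats 1 and 2 and S rat 3 on high salt), with changes between 0.15 and 0.19. With the Gapdh ratio as a covariate, Ube2v1 was 0.31 (limma adjusted p = 0.106) and Npepl1 0.20 (adjusted p = 0.0635).

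**Figure D1:**
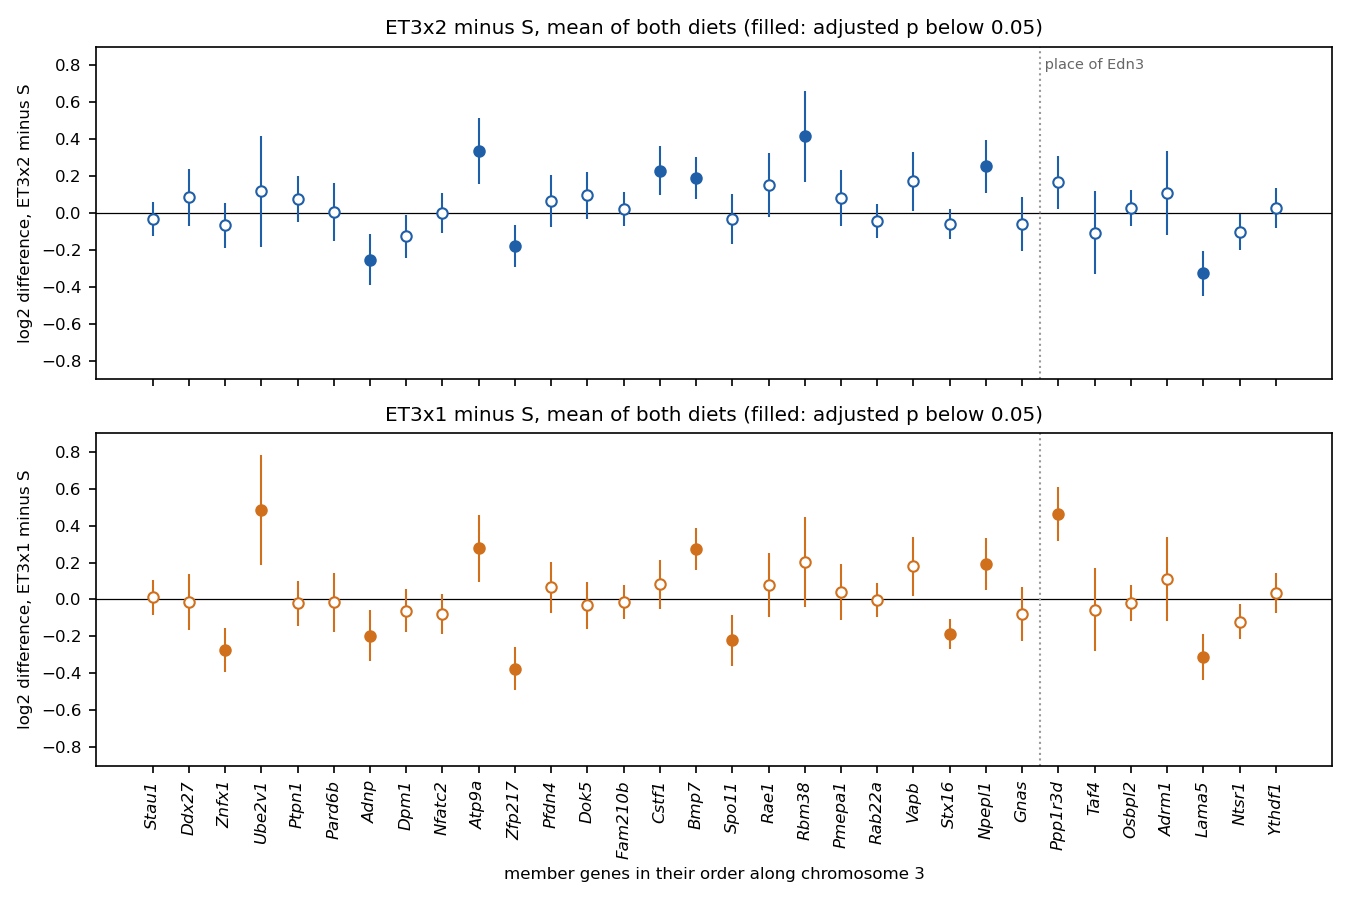
Log2 difference of each tested gene near Edn3 against S, averaged over both diets, with ET3x2 minus S above and ET3x1 minus S below. Genes run along the x axis in GRCr8 gene order, with the place of Edn3 marked, bars are 95% intervals and filled points have a limma adjusted p below 0.05. Called genes run from -0.33 for Lama5 to 0.42 for Rbm38 in ET3x2, where Lama5 is the only one after Edn3, and from -0.37 for Zfp217 to 0.49 for Ube2v1 in ET3x1, where both signs occur on both sides.

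Zfp217 was lower in ET3x1 rats. Its signals were 7.71, 7.46, 7.72 and 7.86 in ET3x2 rats on high salt and 7.76, 7.87, 8.00 and 7.86 in ET3x2 rats on low salt. ET3x1 rats had 7.64, 7.49, 7.71 and 7.54 on high salt and 7.48, 7.51, 7.62 and 7.68 on low salt. S rats had 8.14, 7.80, 7.83, 8.03 and 7.83 on high salt and 8.00, 8.12, 7.97, 7.90 and 7.95 on low salt. Every ET3x1 rat, with 7.71 at most, lay below every S rat, with 7.80 at least, while ET3x2 rats overlapped with both. The ET3x1 change had a limma adjusted p of 5.49e-05 and a 95% interval of -0.49 to -0.26, and it was called on high salt (-0.33 ± 0.08) and on low salt (-0.42 ± 0.08). The high-salt call was lost with the Gapdh ratio (-0.41, adjusted p = 0.0577) or bioD minus bioC (-0.33, adjusted p = 0.0524) as a covariate, and the low-salt call was kept with each.

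Ppp1r3d went the other way in ET3x1. It had 7.03, 6.92, 6.84 and 6.88 in ET3x2 rats on high salt and 6.65, 6.71, 6.58 and 6.86 in ET3x2 rats on low salt. ET3x1 rats had 7.12, 6.99, 7.25 and 7.50 on high salt and 7.05, 6.90, 7.10 and 6.96 on low salt. In S rats it was 6.95, 6.59, 6.47, 6.68 and 6.85 on high salt and 6.33, 6.61, 6.72, 6.56 and 6.70 on low salt. On each diet every ET3x1 rat was above every S rat, and over both diets the ranges overlapped slightly. The ET3x1 change corresponded to a 1.38-fold higher signal (adjusted p = 5.58e-05) and was called on high salt (0.51 ± 0.10) and low salt (0.42 ± 0.10), the high-salt call being lost with the Gapdh ratio as a covariate (0.42, adjusted p = 0.0949). The ET3x2 change of 0.17 ± 0.07 was not called (adjusted p = 0.0766).

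Lama5 was lower in both congenic strains. It had 8.84, 9.06, 8.83 and 8.73 in ET3x2 rats on high salt and 9.14, 8.94, 8.83 and 8.94 in ET3x2 rats on low salt. ET3x1 rats had 8.80, 8.91, 8.72 and 8.59 on high salt and 8.97, 9.19, 9.17 and 9.06 on low salt. S rats had 9.36, 9.33, 9.37, 9.24 and 9.09 on high salt and 9.02, 9.36, 9.31, 9.10 and 9.23 on low salt. On high salt all 8 congenic rats were below the lowest S rat, and on low salt the strains overlapped. On high salt the changes were -0.41 ± 0.09 for ET3x2 (adjusted p = 0.0111) and -0.52 ± 0.09 for ET3x1 (adjusted p = 0.000476), and the ET3x1 call was lost with the Gapdh ratio as a covariate (-0.42, adjusted p = 0.0647). The podocyte markers moved the same way: the mean log2 signal of their 3 probe sets, 2 of them above the limit (Podxl and Synpo) and Nphs1 below it, lay between 7.53 and 7.68 in ET3x2 rats on high salt and between 7.78 and 7.99 on low salt. It lay between 7.39 and 7.57 in ET3x1 rats on high salt and between 7.50 and 7.81 on low salt, against 7.90 to 8.27 in S rats on high salt and 8.03 to 8.20 on low salt. The 2 endothelial markers averaged 8.51 and 8.56 in ET3x2 rats and 8.46 and 8.68 in ET3x1 rats on high and low salt, against 8.82 and 8.85 in S rats. Their part in the Lama5 difference was not tested.

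Bmp7 was higher in both congenic strains over both diets, and within diets it was called on low salt only. Signals were 9.68, 9.81, 9.70 and 9.68 in ET3x2 rats on high salt and 9.79, 9.67, 9.64 and 9.71 in ET3x2 rats on low salt. ET3x1 rats had 9.75, 9.74, 9.71 and 9.75 on high salt and 9.70, 10.06, 9.79 and 9.84 on low salt. S rats had 9.65, 9.74, 9.49, 9.66 and 9.52 on high salt and 9.18, 9.49, 9.47, 9.35 and 9.64 on low salt. On low salt all ET3x1 rats were above all S rats, and the lowest ET3x2 rat was at the level of the highest S rat, both 9.64. The low-salt changes were 0.28 ± 0.08 for ET3x2 (adjusted p = 0.0164) and 0.42 ± 0.08 for ET3x1 (adjusted p = 0.000708), and neither high-salt change was called. The salt response of Bmp7 was not called as different from that of S rats in either strain, so a dependence on diet was not shown. The ET3x2 low-salt call was lost without ET3x2 rat 1 or S rat 1 on low salt, with changes between 0.22 and 0.25, and with either covariate. Pmepa1, which TGF-beta induces and which restrains SMAD signalling, was not called against S over both diets, with 0.08 ± 0.07 in ET3x2 and 0.04 ± 0.07 in ET3x1.

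Znfx1 was low in 1 group only. Signals were 7.68, 7.56, 7.55 and 7.71 in ET3x2 rats on high salt and 7.71, 7.65, 7.54 and 7.54 in ET3x2 rats on low salt. ET3x1 rats had 7.27, 7.12, 7.35 and 7.08 on high salt and 7.48, 7.54, 7.77 and 7.67 on low salt. S rats had 7.63, 7.58, 7.75, 7.75 and 7.72 on high salt and 7.38, 7.71, 7.90, 7.78 and 7.65 on low salt. The 4 ET3x1 rats on high salt were below all 22 others. The high-salt change of ET3x1 against S was -0.48 ± 0.08 (adjusted p = 0.000648), and that of a dimmer second probe set, -0.18 ± 0.06, was not called (adjusted p = 0.0550).

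Stx16 was slightly lower in ET3x1. ET3x2 rats had 8.77, 8.80, 8.68 and 8.63 on high salt and 8.74, 8.81, 8.78 and 8.70 on low salt. ET3x1 rats had 8.57, 8.62, 8.50 and 8.66 on high salt and 8.63, 8.55, 8.69 and 8.68 on low salt. S rats had 8.80, 8.86, 8.86, 8.72 and 8.67 on high salt and 8.85, 8.87, 8.80, 8.81 and 8.75 on low salt. Only S rat 5 on high salt, with 8.67, fell inside the ET3x1 range of 8.50 to 8.69. The same probe set stands on both chips, and the change was -0.19 ± 0.04 on RAE230A and -0.23 ± 0.06 on RAE230B, a technical repeat on the same rats.

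**Figure D2:**
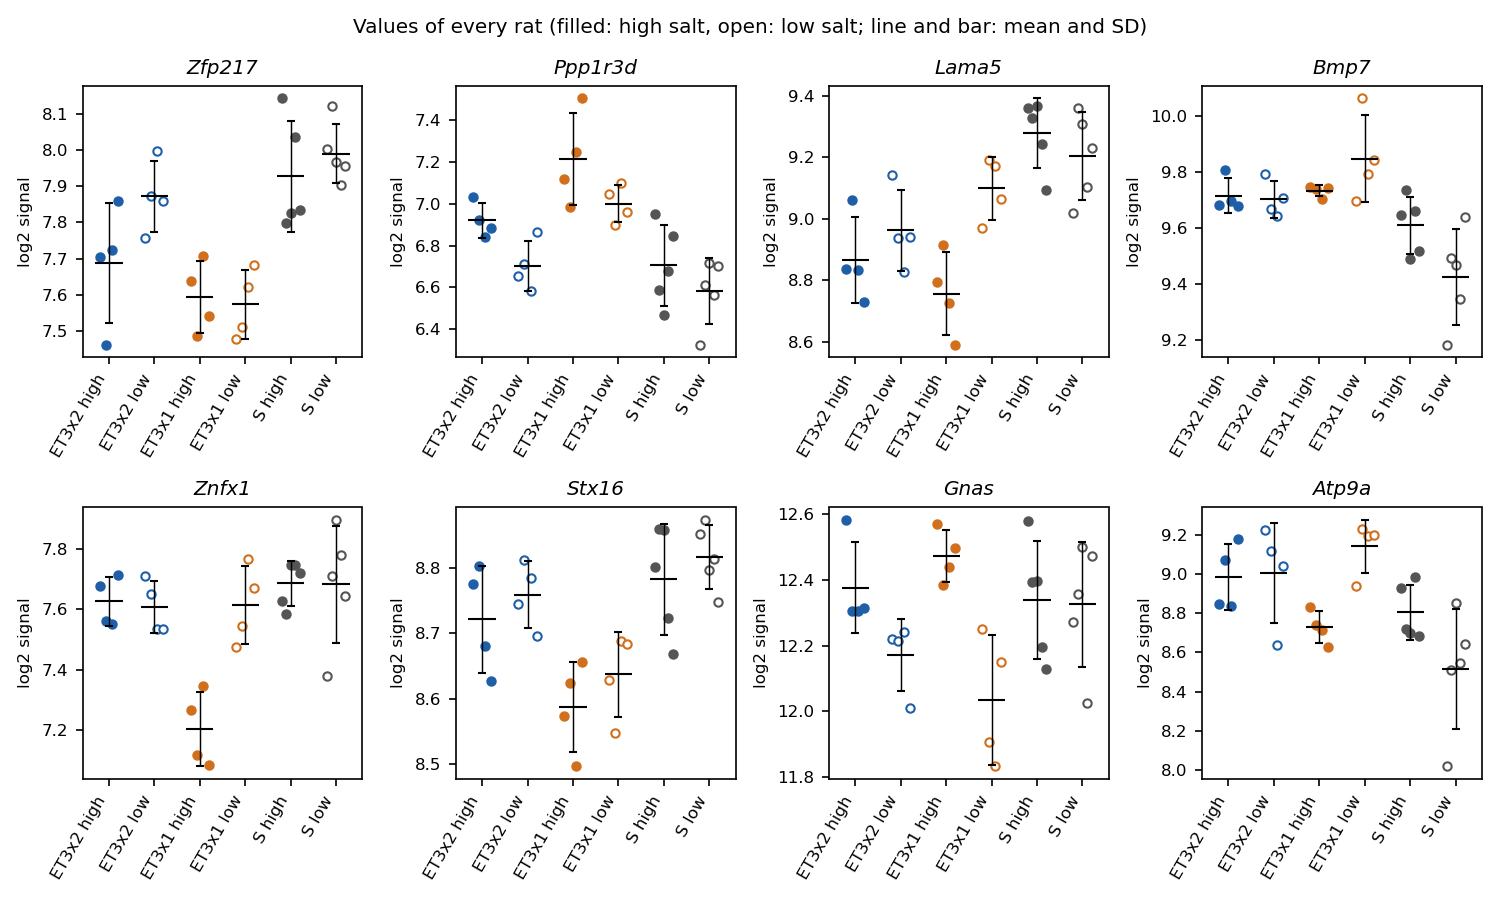
Log2 signal of every rat for 8 genes near Edn3, with ET3x2, ET3x1 and S groups in turn, high salt before low salt. Points are rats (filled on high salt, open on low salt), lines are group means and bars SD (n = 4 or 5). Zfp217 in ET3x1 rats (7.48 to 7.71) lies below all S rats (7.80 to 8.14), and Znfx1 is lowest in ET3x1 rats on high salt.

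ET3x2 and ET3x1 kidneys differed from each other in 3 of the 32 genes (9.38%), against 10.2% of all genes, near the background. Ppp1r3d was lower in ET3x2 (-0.30 ± 0.07), while Znfx1 (0.21 ± 0.06) and Zfp217 (0.20 ± 0.06) were higher. The other 29 genes lay between -0.37 for Ube2v1 and 0.21 for Rbm38. A dimmer probe set of Osbpl2 was called as well, lower in ET3x2 (-0.25 ± 0.06), while its brightest, at 0.05, was not. With array medians centred or with quantile normalization 1 gene was called, lower in ET3x2, and with the Gapdh ratio as a covariate none was, the changes then being -0.27 for Ppp1r3d, 0.22 for Znfx1 and 0.24 for Zfp217. Znfx1 lost its call without any of 7 rats, with 0.19 to 0.20, and Zfp217 without any of 9, with 0.17 to 0.20. The count was 1 without ET3x2 rat 2 or ET3x1 rat 1 on low salt, or without ET3x1 rat 2, ET3x1 rat 4 or ET3x2 rat 1 on high salt.

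Within each diet, the shares of genes called against S on low salt and in ET3x2 on high salt were near those of all genes. In ET3x2 against S on low salt 7 genes were called (background 22.2%): Atp9a 0.49 ± 0.12, Npepl1 0.40 ± 0.10, Cstf1 0.32 ± 0.09, Bmp7 0.28 ± 0.08, Adnp -0.33 ± 0.10, Lama5 -0.24 ± 0.09 and Dpm1, which makes the mannose donor dolichol phosphate mannose, -0.24 ± 0.08. On high salt only Lama5 was called (background 3.76%). As the mean of its probe sets Cstf1 on low salt was 0.16 (adjusted p = 0.162) and Adnp -0.18, and with at least 1 of the covariates Cstf1, Bmp7, Adnp, Lama5 and Dpm1 lost the low-salt call. In ET3x1 against S on low salt 10 genes were called (background 29.8%), among them Atp9a 0.63 ± 0.12, Npepl1 0.47 ± 0.10, Bmp7 0.42 ± 0.08, Ppp1r3d 0.42 ± 0.10, Vapb 0.38 ± 0.11 and Pmepa1 0.30 ± 0.10 with higher signals. Zfp217 -0.42 ± 0.08, Adnp -0.35 ± 0.10, Gnas -0.29 ± 0.10 and Stx16 -0.18 ± 0.06 were lower there. Vapb, a protein of the endoplasmic reticulum at membrane contact sites, had a dimmer probe set at -0.12 ± 0.10, and the mean of both was 0.13 (adjusted p = 0.249). On high salt 6 were called (background 12.7%): Ppp1r3d 0.51 ± 0.10, Lama5 -0.52 ± 0.09, Znfx1 -0.48 ± 0.08, Zfp217 -0.33 ± 0.08, Spo11 -0.29 ± 0.09 and Stx16 -0.19 ± 0.06. ET3x2 against ET3x1 gave no call on low salt by limma, with 3 genes at an unadjusted p under 0.05 and 3.35% of all genes called. On high salt it gave Znfx1 0.42 ± 0.09 (background 6.44%). Dimmer probe sets of Osbpl2 (-0.48 ± 0.08) and Ythdf1 (-0.41 ± 0.10) were called there too, while their brightest, at 0.07 and 0.02, were not. In ET3x1 against S, dimmer probe sets were called on low salt for Rab22a (-0.25 ± 0.07) and Ddx27 (0.23 ± 0.08). On high salt those of Vapb (0.42 ± 0.10), Cstf1 (0.35 ± 0.11) and Osbpl2 (0.34 ± 0.08) were called. Spo11 on high salt was -0.18 without ET3x1 rat 4, and its call was lost without any of 5 rats, and the Lama5 low-salt call in ET3x2 was lost without any of 15 rats, with -0.24 to -0.20.

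Salt, averaged over the 3 strains, changed 2 of the 32 genes (6.25%), against 13.8% of all genes, and the difference between these shares was not tested. With array weights or the probe set of smallest p, 8 genes were called. Gnas was 0.22 ± 0.06 higher on high salt (adjusted p = 0.0126) and Ppp1r3d 0.18 ± 0.06 (adjusted p = 0.0342). Gnas signals were 12.58, 12.31, 12.30 and 12.32 in ET3x2 rats on high salt, against 12.22, 12.22, 12.24 and 12.01 in ET3x2 rats on low salt. ET3x1 rats had 12.57, 12.39, 12.44 and 12.50 on high salt, against 12.25, 11.91, 11.83 and 12.15 on low salt. S rats had 12.58, 12.39, 12.40, 12.20 and 12.13 on high salt, against 12.27, 12.36, 12.50, 12.02 and 12.47 on low salt. In each congenic strain the diets did not overlap, and in S rats they did, with changes of 0.21 ± 0.11 in ET3x2, 0.44 ± 0.11 in ET3x1 and 0.01 ± 0.09 in S. The differences of these responses from that in S were not called for either strain, with 0.19 ± 0.14 for ET3x2 (adjusted p = 0.694) and 0.42 ± 0.14 for ET3x1 (adjusted p = 0.0755). The salt changes of Ppp1r3d were 0.22 ± 0.11 in ET3x2, 0.21 ± 0.11 in ET3x1 and 0.12 ± 0.09 in S. The Ppp1r3d call was lost without any of 10 rats, with 0.15 to 0.18, and both calls were lost with the Gapdh ratio as a covariate, with 0.16 for Gnas (adjusted p = 0.602) and 0.11 for Ppp1r3d (adjusted p = 0.761). With quantile normalization 5 genes were called, 3 higher and 2 lower. The count was 1 without ET3x1 rat 2 or 4 on low salt, or ET3x1 rat 3, ET3x2 rat 1 or S rat 5 on high salt, and 4 without S rat 5 on low salt.

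Within strains, salt changed 6 of the 32 genes in ET3x1 (18.8%), against 14.3% of all genes, and none in ET3x2 or S. In ET3x1 rats Gnas was higher on high salt, and Atp9a (-0.41 ± 0.13), Znfx1 (-0.41 ± 0.09), Pmepa1 (-0.40 ± 0.11), Npepl1 (-0.36 ± 0.10) and Lama5 (-0.34 ± 0.09) were lower. A dimmer Znfx1 probe set was at -0.08 ± 0.07, not called. Some tubule markers moved with these changes in ET3x1 rats: the mean log2 signal of 4 proximal tubule markers was 12.16 to 12.27 on high salt, against 12.29 to 12.43 on low salt, that of 2 distal convoluted tubule markers 11.16 to 11.30, against 11.32 to 11.46, and that of 2 collecting duct markers 10.05 to 10.23, against 10.32 to 10.37. That of 2 thick ascending limb markers overlapped, with 11.35 to 11.61 on high salt, against 11.22 to 11.54 on low salt. The part of the markers in the changes was not tested. In limma, ET3x2 rats had 4 genes and S rats 3 with an unadjusted p under 0.05, and of all genes 0.453% were called in ET3x2 and 2.78% in S. The 4 in ET3x2 were Zfp217, Cstf1, Pmepa1 and Ppp1r3d, with -0.18 ± 0.08, -0.20 ± 0.10, -0.24 ± 0.11 and 0.22 ± 0.11. In S they were Ube2v1, Atp9a and Bmp7, with 0.41 ± 0.19, 0.29 ± 0.12 and 0.18 ± 0.07. With the Gapdh ratio as a covariate no ET3x1 call was left. The changes were then -0.45 ± 0.14 for Znfx1, -0.44 ± 0.18 for Pmepa1, -0.43 ± 0.21 for Atp9a, -0.33 ± 0.16 for Npepl1, 0.34 ± 0.17 for Gnas and -0.21 ± 0.14 for Lama5. The ratio went with the diet in ET3x1 rats, at 0.56 to 0.61 on high salt, against 0.77 to 0.99 on low salt. Their parts in the changes cannot be told apart there. With bioD minus bioC as a covariate 2 calls were left. Without ET3x1 rat 4 on high salt 3 were left, Pmepa1 then being -0.32 and Npepl1 -0.30, and the Atp9a call was lost without any of 6 ET3x1 rats, with -0.42 to -0.38.

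By brightest probe sets, the salt responses of ET3x1 and S rats differed in 5 of the 32 genes (15.6%), all with a lower response in ET3x1. Of all genes 5.8% differed, 4.92% with a lower and 0.884% with a higher response. The differences were -0.70 ± 0.18 for Atp9a (adjusted p = 0.0201), -0.55 ± 0.14 for Npepl1 (adjusted p = 0.0214), -0.53 ± 0.15 for Pmepa1 (adjusted p = 0.0365), -0.42 ± 0.12 for Lama5 (adjusted p = 0.0417) and -0.42 ± 0.12 for Znfx1 (adjusted p = 0.0365). The dimmer Znfx1 probe set had -0.09 ± 0.09, not called. The dimmer Vapb probe set was called with a higher response in ET3x1 (0.54 ± 0.13, limma adjusted p = 0.0200), while the brightest of Vapb, at -0.40, was not called. The median difference was -0.05 over the 32 genes and -0.08 over all genes. For Atp9a, ET3x2 rats had 8.85, 9.07, 8.84 and 9.18 on high salt, against 9.23, 9.12, 8.64 and 9.04 on low salt. ET3x1 rats had 8.83, 8.74, 8.72 and 8.63 on high salt, against 8.94, 9.23, 9.20 and 9.20 on low salt. S rats had 8.93, 8.72, 8.70, 8.99 and 8.69 on high salt, against 8.02, 8.51, 8.85, 8.55 and 8.64 on low salt. All ET3x1 rats were lower on high salt than any ET3x1 rat on low salt, and the diets overlapped in ET3x2 and S rats. On low salt the 4 ET3x1 rats were above the 5 S rats, and on high salt both strains overlapped.

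Pmepa1 and Npepl1 also had a lower mean on high salt in ET3x1 rats. Pmepa1 averaged 9.39 ± 0.28 on high salt, against 9.79 ± 0.05 on low salt, in ET3x1 rats (SD, n = 4 each), and 9.62 ± 0.16, against 9.49 ± 0.22, in S rats (SD, n = 5 each). Npepl1 averaged 9.06 ± 0.17 on high salt, against 9.42 ± 0.10 on low salt, in ET3x1 rats, and 9.14 ± 0.09, against 8.96 ± 0.24, in S rats. Within-group SD of Pmepa1 was widest among ET3x1 rats on high salt, whose values ran between 9.16 and 9.80 and overlapped with those on low salt, 9.72 to 9.83. On low salt S rats reached 9.83 as well. The Npepl1 values of ET3x1 rats, 8.87 to 9.24 on high salt and 9.31 to 9.55 on low salt, did not overlap.

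The response differences depended on the covariates and on single rats. None was left with the Gapdh ratio or bioD minus bioC as a covariate, and none without ET3x1 rat 2 or 3 on low salt. With the Gapdh ratio the differences were -0.72 for Atp9a, -0.57 for Pmepa1, -0.52 for Npepl1, -0.45 for Znfx1 and -0.29 for Lama5 (limma adjusted p between 0.209 and 0.418), and without ET3x1 rat 2 or 3 that of Atp9a lay between -0.69 and -0.67. Fewer calls, 1 to 3, were also left without ET3x1 rat 4 on low salt (2), ET3x1 rats 2, 3 or 4 on high salt (3, 2 and 1), S rat 1 on low salt (2) or S rats 2, 3, 4 or 5 on high salt (3 each). With quantile normalization 5 genes were called, 2 with a higher and 3 with a lower response. The responses of ET3x2 rats differed from those of S rats in no gene near Edn3 (2 at an unadjusted p under 0.05) and from those of ET3x1 rats in none (4 at an unadjusted p under 0.05), by limma, against 0% and 0.181% of all genes. Without ET3x1 rat 1 on low salt 1 gene differed between ET3x2 and ET3x1 rats.

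**Figure D3:**
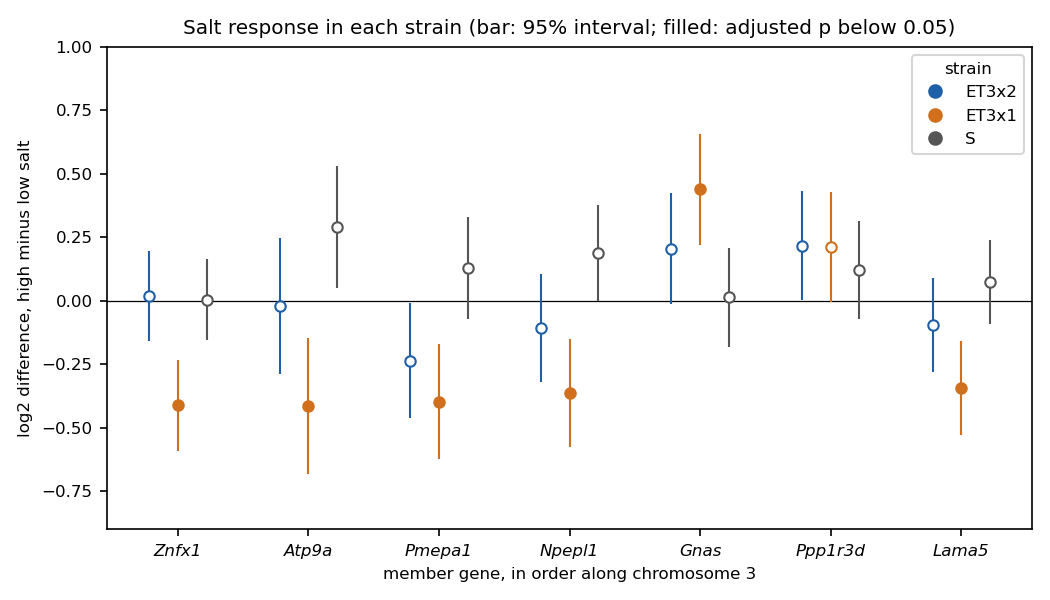
Log2 difference between high and low salt in ET3x2, ET3x1 and S rats for the 7 genes called for salt or for the response difference, in gene order. Points are limma estimates, bars 95% intervals, and filled points have an adjusted p below 0.05. In ET3x1 rats Gnas is at 0.44 and Znfx1, Atp9a, Pmepa1, Npepl1 and Lama5 lie between -0.41 and -0.34, and no point of ET3x2 or S rats is filled.

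The promoters of the 5 genes whose salt response differed between ET3x1 and S rats are shown because these genes were called in that comparison. Their shared direction was also that of most genes called in the whole series (4.92% of all genes lower, 0.884% higher). They are RefSeq sequences of GRCr8, with 250 bases before and 50 after the start: Znfx1 at chr3:176210763-176211062 (- strand), Atp9a at chr3:177886382-177886681 (- strand), Pmepa1 at chr3:182478600-182478899 (- strand), Npepl1 at chr3:183311935-183312234 (+ strand) and Lama5 at chr3:187695925-187696224 (- strand). Each is written 5' to 3' along its gene, and capitals mark the GC box GGGCGG and the CCAAT box on either strand, overlapping matches included.
Znfx1: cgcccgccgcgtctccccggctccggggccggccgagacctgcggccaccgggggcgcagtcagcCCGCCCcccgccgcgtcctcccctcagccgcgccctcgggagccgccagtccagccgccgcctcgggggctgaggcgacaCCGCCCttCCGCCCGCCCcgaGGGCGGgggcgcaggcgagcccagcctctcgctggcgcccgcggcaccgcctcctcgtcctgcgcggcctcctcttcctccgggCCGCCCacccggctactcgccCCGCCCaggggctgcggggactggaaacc
Atp9a: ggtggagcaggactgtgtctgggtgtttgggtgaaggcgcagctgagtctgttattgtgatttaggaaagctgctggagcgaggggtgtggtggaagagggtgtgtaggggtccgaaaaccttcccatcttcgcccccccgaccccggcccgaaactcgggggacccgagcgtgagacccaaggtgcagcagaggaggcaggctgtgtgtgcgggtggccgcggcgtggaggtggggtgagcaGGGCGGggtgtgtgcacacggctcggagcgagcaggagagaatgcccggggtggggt
Pmepa1: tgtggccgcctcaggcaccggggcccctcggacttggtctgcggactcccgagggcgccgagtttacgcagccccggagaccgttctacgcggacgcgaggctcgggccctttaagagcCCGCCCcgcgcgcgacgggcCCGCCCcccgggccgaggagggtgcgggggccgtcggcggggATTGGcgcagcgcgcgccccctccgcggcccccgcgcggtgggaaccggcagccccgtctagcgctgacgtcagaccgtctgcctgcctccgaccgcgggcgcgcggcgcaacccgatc
Npepl1: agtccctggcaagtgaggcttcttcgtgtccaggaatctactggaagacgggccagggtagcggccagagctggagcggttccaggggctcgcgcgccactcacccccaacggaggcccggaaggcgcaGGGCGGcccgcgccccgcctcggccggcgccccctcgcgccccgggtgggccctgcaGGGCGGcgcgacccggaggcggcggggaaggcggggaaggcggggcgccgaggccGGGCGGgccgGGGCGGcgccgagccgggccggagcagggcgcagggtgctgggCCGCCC
Lama5: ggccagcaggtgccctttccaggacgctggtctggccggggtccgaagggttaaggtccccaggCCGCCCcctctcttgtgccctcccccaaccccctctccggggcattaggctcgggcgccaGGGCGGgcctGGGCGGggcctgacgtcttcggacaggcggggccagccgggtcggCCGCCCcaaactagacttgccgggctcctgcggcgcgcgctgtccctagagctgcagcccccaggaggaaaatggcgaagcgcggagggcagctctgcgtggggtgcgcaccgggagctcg
The GC box occurred 7 times in Znfx1, 5 times in Npepl1, 4 times in Lama5, 2 times in Pmepa1 and 1 time in Atp9a, and the CCAAT box only in Pmepa1, 1 time. A GC box stood in 31 of the 45 promoters matched to the 47 genes and in 33.1% of 33469 rat promoters of the same length. The CCAAT box stood in 13 of the 45 and in 37.5% of all. The cAMP response element TGACGTCA, left in lower case, stood in 1 of the 45, that of Pmepa1, and in 1.83% of all, and the TATA box TATAAA stood in 3 of the 45 and in 14.2% of all. The E-box CACGTG stood in 4 of the 45 and in 6.42% of all. The median GC content was 70% over the 45 promoters and 51.7% over all, and a match describes the letters only.

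Different probe sets of the same gene often disagreed about salt. Of the 32 genes, 9 had more than 1 tested probe set, with 10 dimmer probe sets in all. Over the 3 strains, 6 of these 10 were called for salt (14.5% of all 15473 probe sets), and the brightest probe set of none of those genes was. The dimmer probe sets were higher on high salt by 0.30 ± 0.06 for Vapb, 0.29 ± 0.07 for Rae1, which takes part in mRNA export, 0.27 ± 0.06 for Ythdf1, a reader of N6-methyladenosine in mRNA, 0.26 ± 0.05 for Osbpl2, an oxysterol-binding protein, and 0.19 ± 0.06 for Cstf1, and lower by -0.12 ± 0.04 for Rab22a, an endosomal GTPase. The brightest probe sets of these genes had -0.02 for Vapb, -0.0018 for Rae1, -0.03 for Ythdf1, 0.03 for Osbpl2, -0.13 for Cstf1 and 0.07 for Rab22a. In ET3x1 rats the dimmer probe set of Vapb was higher on high salt by 0.62 ± 0.10 and the brightest was at -0.32 ± 0.12 (not called). Those of Ythdf1, Osbpl2 and Rae1 were higher by 0.54 ± 0.10, 0.52 ± 0.08 and 0.42 ± 0.12. A dimmer probe set of Rab22a was lower (-0.25 ± 0.07), while its brightest, at 0.02, was not called. These were 5 of the 10 dimmer probe sets, against 15.9% of all probe sets. Over the 3 strains the probe sets of Vapb, Rae1, Ythdf1, Cstf1 and Rab22a differed in sign, and those of Osbpl2 differed in size only.

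**Figure D4:**
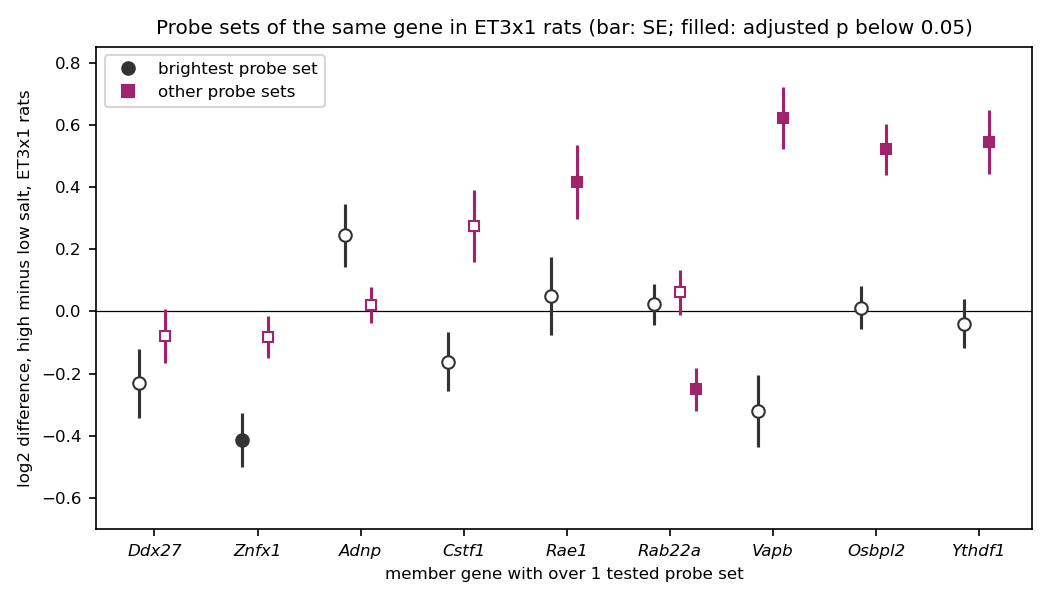
Log2 difference between high and low salt in ET3x1 rats for each tested probe set of the 9 genes with more than 1. Circles are the brightest probe sets, squares the dimmer ones, bars SE, and filled symbols have a limma adjusted p below 0.05. The Vapb probe sets stand at 0.62 and -0.32, and those of Osbpl2, Ythdf1 and Rae1 are filled only for the dimmer one. A dimmer Rab22a probe set is filled at -0.25.

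By their brightest probe sets, 15 of the 32 genes were called in none of the 16 comparisons. Among signalling genes these were Ptpn1, the phosphatase that acts on the insulin receptor, Ntsr1 and the adaptor Dok5. Ntsr1 came nearest in ET3x1 against S, with -0.12 ± 0.05 (adjusted p = 0.0523), and was -0.10 ± 0.05 in ET3x2. Stau1 and Ddx27, which bind or unwind RNA, the polarity gene Pard6b, the transcription factors Taf4 and Nfatc2, the proteasome receptor Adrm1 and the chaperone subunit Pfdn4 were between -0.11 and 0.11 in both strain comparisons against S. The median SD within groups over the 32 genes was 0.14.

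Genes that act with Bmp7 and Gnas lie elsewhere in the genome. Of 26 listed genes of BMP signalling 16 were tested. Against S, 5 of them were called in ET3x2 (31.3% of the 16, against 30.8% of all genes: Id1, an inhibitor of helix-loop-helix factors, with 0.21 ± 0.08, and Twsg1, Acvr1, Bambi and Smad1 lower) and 4 in ET3x1 (25%, against 32.1% of all genes: Bmp6 with 0.40 ± 0.07 and Smad6 higher, Acvr1 and Smad5 lower). Averaged over the 3 strains, Sostdc1, a BMP antagonist, was higher on high salt by 0.24 ± 0.06 and the receptor Acvr1 by 0.17 ± 0.05. Id1 was lower (-0.23 ± 0.07), but not alike in the strains. In ET3x1 rats it was at -0.53 ± 0.12, and its salt response was lower there than in S rats (-0.61 ± 0.16, limma adjusted p = 0.0252). Of 23 listed genes of Gs and cAMP signalling 14 were tested. Against S, 2 were called in ET3x2 (14.3% of the 14, against 30.8% of all genes: Prkar2a with -0.36 ± 0.06 and Akap12 with -0.29 ± 0.07). In ET3x1 7 were called (50% of the 14, against 32.1% of all genes). Pth1r, the parathyroid hormone receptor, at 0.47 ± 0.11 and Prkaca were higher, and Adcy6, Adcy3, Ptger4, Pde7a and Prkar2a lower. These values are means over both diets. The salt responses of Pth1r (-0.83 ± 0.22) and Prkaca (-0.49 ± 0.13) were lower in ET3x1 than in S rats (limma adjusted p = 0.0276 and 0.0266). Compared directly, ET3x2 and ET3x1 differed in 7.14% of the cAMP list (Adcy6) and in 25% of the BMP list (1 higher and 3 lower in ET3x2), against 10.2% of all genes. The differences between these shares were not tested. The median changes against S were 0.04 in ET3x2 and -0.00408 in ET3x1 for the BMP list, and -0.06 and -0.07 for the cAMP list, against 0.03 and 0.02 for all genes. The genes of both lists were not examined with the quality covariates.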

How the data were processed

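Left-kidney RNA of 26 male rats was hybridised to 1 RAE230A and 1 RAE230B chip each, 52 arrays in all. The deposited values are the authors' log2 signals per probe set. How they were summarised and normalized is not given in the sources used here, and the log2 scale was read from the range of the values (4.11 to 14.69 on RAE230A and 3.40 to 13.44 on RAE230B). Control probe sets were left out. A probe set was tested when its mean over all rats reached the median of its chip, 7.51 or 6.38, and 15473 of 31142 passed. A group of 4 or 5 arrays limits the precision. limma 3.58.1 in R 4.3.3 was fitted to 6 groups with an intensity trend. Adjusted p-values are Benjamini-Hochberg over all probe sets of both chips, with a threshold of 0.05, two-sided. A gene stands for its brightest tested probe set. Every gene called was named, with its log2 change, and 8 genes are given by rat. They are the 6 with the largest absolute limma statistic in a congenic strain against S, the 2 with the largest for salt over the strains, and the gene with the largest called response difference. Ppp1r3d was picked by 2 of these rules. Groups without overlap among these genes follow in part from that choice. The share of all genes without such overlap is not given here. Alternatives were other scalings, filters, probe set rules, array weights, quality covariates, 2 strains alone and each rat left out. Rats are separate animals, numbered in accession order within a group. The script was tested on simulated data. The genes and lists were chosen with earlier results of these data known. Genes with no probe set named for them were not analysed here.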

Additional observations from a re-analysis of the deposited data

Results flagged for a closer look

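Among the 8 genes given by rat, 5 of 48 groups held a rat set apart from the others of its group. The measure was the gap to the nearest rat as a share of the group's range, so a small gap counts where the others lie close together. By chance about 1 in 20 groups would hold such a rat, and the count was not tested against this. For Gnas, ET3x2 rat 1 on high salt had 12.58 while the other three had 12.30 to 12.32, and ET3x2 rat 4 on low salt had 12.01 while the others had 12.22 to 12.24. For Bmp7, ET3x2 rat 2 on high salt had 9.81 while the others had 9.68 to 9.70, and ET3x1 rat 3 on high salt had 9.71 while the others had 9.74 to 9.75. For Atp9a, ET3x1 rat 1 on low salt had 8.94 while the others had 9.20 to 9.23.

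By brightest probe sets, the salt response differed between ET3x1 and S rats for 5 genes, by a limma test of the difference itself. ET3x1 minus S was -0.70 for Atp9a, -0.55 for Npepl1, -0.53 for Pmepa1, -0.42 for Lama5 and -0.42 for Znfx1. The Gapdh 3' to 5' ratio moved with it, at 0.594 and 0.877 in ET3x1 rats on high and low salt, against 0.812 and 0.827 in S rats. Its part in the differences was not tested beyond the covariate fit, in which no call was left.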

How the results depend on the processing

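No paired analysis was possible because the replicate numbers were given in accession order and only name the rats. No called value changed its direction under any alternative run, and Gnas between ET3x2 and ET3x1, not called at 0.02, turned to -0.04 with bioD minus bioC as covariate and to as low as -0.01 without 1 rat. Of 2346 values recomputed, 2146 stayed on their side of the threshold and 200 lost their call. Of 60 called values 26 lost the call without at least 1 rat. Cause was not tested for any of the changes below. Of 3 genes called between ET3x2 and ET3x1, the count was 1 with array medians centred, quantile normalization or the brightest 25% of probe sets, 6 with no filter and 0 with the Gapdh ratio as covariate. Of 2 called for salt over the 3 strains, it was 5 with quantile normalization, 4 with no filter, 1 with the brightest 25%, 8 with array weights (4 higher, 4 lower) or with the probe set of smallest p, and 0 with the Gapdh ratio. Of 6 called for salt in ET3x1 it was 0 with the Gapdh ratio, 2 with bioD minus bioC and 11 with the probe set of smallest p, and of 0 in ET3x2 it was 1 with array weights. Of 5 response differences between ET3x1 and S it was 3 with no filter, 9 with array weights and 0 with either covariate, and of 0 between ET3x2 and ET3x1 it was 3 with array weights. Leaving out 1 rat gave 7 to 10 calls for ET3x2 against S, 9 to 13 for ET3x1 against S, 1 to 4 for ET3x2 against ET3x1, 1 to 4 for salt, 3 to 9 for salt in ET3x1, 0 in ET3x2 and in S, 0 to 7 for the response difference of ET3x1 and S, 0 for that of ET3x2 and S, and 0 to 1 for that of ET3x2 and ET3x1. Genes below the brightness limit had no main test.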

Other observations

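Of 20 listed genes of vitamin D and calcium handling, the setting of Cyp24a1, 12 were tested, and 4 were called against S in ET3x2 and 3 in ET3x1 (33.3% and 25%, against 30.8% and 32.1% of all genes). Between ET3x2 and ET3x1 none of the 12 was called, against 10.2% of all genes. The endocytic receptors Lrp2 (megalin) and Cubn (cubilin), which take up filtered vitamin D binding protein, were lower in ET3x2, by -0.52 ± 0.06 and -0.35 ± 0.06, and in ET3x1, by -0.36 ± 0.06 and -0.27 ± 0.06 (limma log2 change ± SE). The sodium-calcium exchanger Slc8a1 was lower in ET3x2 (-0.37 ± 0.09), while Atp2b1 was higher in ET3x2 (0.22 ± 0.06) and Pth1r in ET3x1 (0.47 ± 0.11). The Pth1r value is a mean over both diets, and its salt response was lower in ET3x1 than in S rats (-0.83 ± 0.22, limma adjusted p = 0.0276). The same S rats entered both comparisons. Averaged over the 3 strains, high-salt kidneys had higher signals of Cyp27b1, which activates vitamin D (0.43 ± 0.06), and of the calcium-binding protein Calb1 (0.20 ± 0.05). Signals of the calcium-sensing receptor Casr (-0.51 ± 0.07) and the calcium pump Atp2b1 (-0.21 ± 0.05) were lower. In ET3x1 rats Atp2b1 was at -0.53 ± 0.09, and its salt response was lower there than in S rats (-0.61 ± 0.11, limma adjusted p = 0.00308). The genes of this list were not examined with the quality covariates.

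With no brightness filter, some dim genes near Edn3 were called, at levels where the chips measure least well. Snai1, a repressor of epithelial genes, was higher in ET3x2 than in S (0.20 ± 0.05, limma adjusted p = 0.00337), and the mitotic kinase gene Aurka was lower (-0.19 ± 0.06). Cebpb, a transcription factor of acute-phase responses, was higher in ET3x1 than in S (0.30 ± 0.09, adjusted p = 0.0162). Mocs3 was also higher (0.13 ± 0.04) and Tshz2 lower (-0.13 ± 0.04) in ET3x2 than in S. Between ET3x2 and ET3x1, Snai1 (0.19), Aurka (-0.21) and Cebpb (-0.33) were called. On high salt, over the 3 strains, Mocs3 (-0.16 ± 0.03) and Bcas1 (-0.14 ± 0.05) were lower. The share of all genes called with no filter is not given here.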
